A study of Homo sapiens with 4 samples.

Results

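The peaks of the forkhead transcription factor FOXK2 at 10 genes of the NF-κB system were examined in OVCAR5 cells, an established line of ovarian cancer cells. The genes were the 5 Rel family subunits NFKB1, NFKB2, RELA, RELB and REL, the IκB family members NFKBIA, NFKBIZ and BCL3, and the A20 module of TNFAIP3 and TNIP1. Every row of the peak lists that names 1 of these 10 genes as the nearest gene was taken, and a gene that no row names was counted as having no peak. The list of replicate 1 gave 7 peaks of 12471, and that of replicate 2 gave 18 of 27281. The study contributed ChIP-seq of FOXK2 and of input chromatin, each in replicates 1 and 2, from cells labelled OVCAR-5, high grade serous, at passage 4-6 in RPMI medium. No knockdown or drug was applied in these libraries. The study's methods call the replicates biological, and the labels give only their numbers. The input libraries were not analysed here, so the comparisons are between the replicate lists and between these genes and all others.

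NF-κB factors are dimers of Rel family subunits, which IκB proteins hold inactive in the cytoplasm until the IKK kinases mark the inhibitors for destruction. Once released, the dimers enter the nucleus, bind κB sites and switch on inflammatory and survival genes. Among the genes they switch on are their own brakes, IκBα and A20, and several Rel subunits, so that the response limits itself. FOXK2 binds DNA through a forkhead domain, whose preferred site holds the heptamer GTAAACA, or TGTTTAC when read on the other strand.

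A FOXK2 peak that both replicates placed at the same site was assigned to 3 of the 10 genes, near the 25.6% of all protein-coding genes with such a pair. TNIP1 had such a peak at its promoter, NFKBIA had one in intron 1 and another 48 kb downstream of its start, and REL had one in intron 3 and another in its 3′ UTR. The TNIP1 peak was among the highest of either list, both NFKBIA sites were at percentiles 53.7 to 84, and the REL sites were at percentiles 9.69 to 61.3, where 100 is the top of a list. NFKB1 had a peak named for it in each replicate, but at different sites. NFKB2, RELA, NFKBIZ and TNFAIP3 had peaks in replicate 2 alone, and no peak of either list was assigned to RELB or BCL3. Over all protein-coding genes, 31.4% had a peak in replicate 1 and 51.9% in replicate 2. Shares with a peak in replicate 2 alone or in neither were not computed. Only 34.2% of all replicate 2 peaks were overlapped in replicate 1. For the replicate 2 peaks of NFKB2, RELA, NFKBIZ and TNFAIP3, the share overlapped among the 500 peaks nearest in rank was 1.6% to 30.8%.

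The bases below show what lay under these peaks. They were read from hg38, and are shown because the TNIP1 promoter carried the highest peak of the 10 genes. The stretch is the part of the replicate 1 peak that lies outside annotated UTRs, chr5:151081085-151081274 on the plus strand, with the heptamer in capitals.
TNIP1 promoter: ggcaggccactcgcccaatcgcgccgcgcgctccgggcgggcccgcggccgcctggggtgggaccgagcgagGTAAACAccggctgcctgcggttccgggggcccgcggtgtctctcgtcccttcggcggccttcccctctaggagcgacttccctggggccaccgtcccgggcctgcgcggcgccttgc

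The 190 bases had a GC content of 77.4%. The heptamer lay at chr5:151081157-151081163, and its middle base was 9 bp from the peak centre of replicate 1 and 3 bp from that of replicate 2. The same peak held a match to the κB consensus at chr5:151081067-151081076, with 80 bases between it and the heptamer. Its middle lay 38 bp upstream of the canonical transcript start. The shared peak in intron 1 of NFKBIA held no heptamer but also held a κB match. Both windows of 30 bases are printed on the plus strand, with the κB match in capitals.
TNIP1 κB match, chr5:151081057-151081086: cccacccctgGGAAAGTCCCcggagactgg
NFKBIA κB match, chr14:35403953-35403982: caggcgcccaGGGACTTTCCgcccccctcc
The 10 letters of the TNIP1 match, read on the other strand, are the same as those of NFKBIA.

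The windows around the other heptamers are shown because they are the sites that the replicates shared, or that gave these genes a heptamer in replicate 2 alone. Each window is oriented so that the heptamer, in capitals, reads TGTTTAC.
REL intron 3, shared, minus strand, chr2:60898706-60898742: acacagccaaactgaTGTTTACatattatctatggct
REL 3′ UTR, shared, plus strand, chr2:60926153-60926173: caggctgTGTTTACtttatcc
NFKB1 intron 3, shared, minus strand, chr4:102531849-102531885: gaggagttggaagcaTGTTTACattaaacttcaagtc
NFKB1 intron 6, shared, plus strand, chr4:102569341-102569377: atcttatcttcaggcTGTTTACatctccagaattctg
NFKB1 upstream, replicate 2, minus strand, chr4:102474985-102475021: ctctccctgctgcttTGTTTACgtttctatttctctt
NFKB2 upstream, replicate 2, minus strand, chr10:102352348-102352384: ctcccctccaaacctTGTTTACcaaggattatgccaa
RELA upstream, replicate 2, plus strand, chr11:65664107-65664143: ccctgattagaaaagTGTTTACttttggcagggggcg
NFKBIA downstream, replicate 2, plus strand, chr14:35398500-35398536: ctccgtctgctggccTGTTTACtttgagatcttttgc
TNFAIP3 upstream, replicate 2, minus strand, chr6:137830009-137830045: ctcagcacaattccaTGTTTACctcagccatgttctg

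The 2 NFKB1 introns in this list carried peaks that the deposited annotation names for another gene, as described with NFKB1. The NFKB2, RELA and TNFAIP3 sites were 9, 82 and 5 bp from the centres of their peaks. A match to a motif is a description of the letters and does not show which protein was bound.

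The peak score used throughout is the number of sequenced tags at the peak, scaled by the authors' software to a fixed library size. One tag was worth 0.18864 in replicate 1 and 0.14872 in replicate 2, and the tags behind each score are given with an exact Poisson 95% interval, which covers counting error only. Scores were ranked within their own list, and a percentile is the place in that list, with 100 at the top. The median score was 5.85 in replicate 1 and 7.29 in replicate 2. The weakest peak of the lists held 16 tags and 21 tags, so a site with fewer tags would not appear.

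The A20 module is described first, since it held the highest peak. TNIP1 encodes a ubiquitin-binding partner of A20 that restrains NF-κB signalling. Its promoter peak had a score of 30.9 in replicate 1 (164 tags, 139.9 to 191.1) at chr5:151081064-151081274. In replicate 2 the score was 60.8 (409 tags, 370.3 to 450.6) at chr5:151081029-151081285. The peak ranked 78 of 12471 and 80 of 27281, at percentiles 99.4 and 99.7, and its centre was 81 and 69 bp upstream of the nearest annotated start. That start is not the outermost of the gene. The centre was 6516 and 6528 bp downstream of the outermost RefSeq start, inside the gene body. The replicate 1 peak lay wholly inside that of replicate 2, with centres 12 bp apart. Among promoter peaks alone it ranked 47 of 2709 in replicate 1 and 53 of 4910 in replicate 2. The focus ratio gives the fraction of a peak's tags that fall on the side of the centre where their strand should place them. It was 0.896 and 0.944, the highest of these genes' peaks in each list. Of the peaks in each list, 0.786% (98) and 0.762% (208) held a heptamer together with a κB match, as this one did.

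TNIP1 had another peak in replicate 2, in intron 1 at chr5:151072744-151073000, with a score of 11.7 (79 tags) and rank 5617. It held the AP-1 site TGACTCA or its reverse complement TGAGTCA, the site of Fos and Jun factors, and no heptamer. No replicate 1 peak overlapped it. Among its 500 neighbours by rank, 53.4% were overlapped in replicate 1. Inside the TNIP1 gene body, a weaker peak of replicate 2 in intron 10, score 5.21, was assigned to the neighbouring gene GPX3, which encodes a secreted glutathione peroxidase.

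TNFAIP3 encodes A20, the ubiquitin-editing enzyme that shuts down signalling upstream of the IKK kinases. It had no peak in replicate 1, in which the nearest peak was 203382 bp from its gene body and was assigned to PERP. In replicate 2 it had 2 peaks, both upstream. The peak 37166 bp upstream, in an intron of the long noncoding RNA WAKMAR2, scored 7.73 (52 tags, 38.84 to 68.19, rank 12252) and held both a heptamer and an AP-1 site. The peak 58904 bp upstream scored 5.35 (36 tags, rank 19709) and held an AP-1 site. A further AP-1 peak of replicate 2, 43057 bp outside the other end of the gene, scored 8.92 and was assigned to LINC02528. Of the peaks in replicate 2, 19.2% held an AP-1 site, and 5 of the 18 peaks of these genes did, or 27.8%. In replicate 1, 17% of all peaks held one, and 1 of the 7 peaks of these genes did. None of the 6 AP-1 peaks of these genes, 1 in replicate 1 and 5 in replicate 2, was overlapped in the other replicate. Over all peaks with an AP-1 site, 78.9% in replicate 1 and 37.2% in replicate 2 were overlapped, so that most such peaks of replicate 2 were in that list alone.

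NFKBIA encodes IκBα, the inhibitor that NF-κB itself induces and that returns the dimers to the cytoplasm. Its peak in intron 1, in a CpG island, scored 7.92 in replicate 1 (42 tags, 30.27 to 56.77, rank 3303). In replicate 2 it scored 12.6 (85 tags, 67.89 to 105.1, rank 4807). The centres lay 765 and 855 bp downstream of the start, and the peaks overlapped by 144 bp. The promoter window of NFKBIA, upstream of this site, was reached by no peak in either replicate.

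The other shared NFKBIA site was intergenic. It scored 6.04 in replicate 1 (32 tags, rank 5777) and 13.2 in replicate 2 (89 tags, rank 4362), at 48348 and 48399 bp from the start, beyond the end of the gene. Neither shared NFKBIA site held a heptamer or an AP-1 site within the peak. Between them, each replicate placed a further AP-1 peak at a different site. It was at 34688 bp in replicate 1, with a score of 5.47, and at 39024 bp in replicate 2, with a score of 6.39. Replicate 2 also had a peak with a heptamer at 6272 bp, with a score of 5.8. NFKBIA thus had 3 peaks in replicate 1 and 4 in replicate 2, the most of the 10 genes in each.

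NFKBIZ encodes a nuclear IκB protein that works as a coactivator for a subset of NF-κB targets, and BCL3 encodes a nuclear IκB protein that pairs with Rel homodimers. NFKBIZ had peaks in replicate 2 alone. They scored 3.87 (26 tags) at 12858 bp upstream, in the neighbouring gene NXPE3, and 4.76 (32 tags) at 19119 bp downstream, in a long terminal repeat. These were at percentiles 5.64 and 19.1, the lowest 2 of the 18. In replicate 1 the nearest peak was 141231 bp from the gene body.

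No peak was assigned to BCL3. A peak of replicate 2 inside its intron 2, score 4.61 and rank 22620, was named for MIR8085. The closest shared pair lay outside the gene, 14381 bp from it in replicate 1 and 14424 bp in replicate 2, and was assigned to CBLC, which encodes a ubiquitin ligase. That pair scored 6.23 and 11.2.

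Among the Rel subunits, 0 of 5 had a promoter peak in both replicates, against 9.34% of protein-coding genes, so that a count of 0 in 5 genes is not particular to them. REL encodes c-Rel, the subunit best known from lymphoid cells. Its shared peak in intron 3, in a MER58A DNA transposon copy, scored 3.96 in replicate 1 (21 tags, 13 to 32.1, rank 11262) and 6.25 in replicate 2 (42 tags, rank 16543). Its shared peak in the 3′ UTR scored 4.72 in replicate 1 (25 tags, rank 8857) and 8.48 in replicate 2 (57 tags, rank 10552). Both held a heptamer, and both were below the median score in replicate 1. A further peak in intron 1, 4300 bp from the start, was present in replicate 2 alone with a score of 8.63, above those of both shared sites there.

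NFKB1, which encodes the precursor of a DNA-binding subunit, had shared peaks inside its gene body that were named for another gene. The peaks named for it were all upstream of the gene and none was shared. In replicate 1 there was 1, at 51453 bp with a score of 4.15. In replicate 2 there were 3, at 71573, 62029 and 26395 bp with scores of 6.84, 7.14 and 5.65. The replicate 1 peak was 10576 bp from the nearest of these. Inside the NFKB1 gene body were 2 shared pairs that the deposited annotation names for LOC105377621. The pair in intron 3 scored 5.28 (28 tags, rank 7370) and 7.29 (49 tags, rank 13458), with 155 bp of overlap. The pair in intron 6 scored 4.34 (23 tags, rank 10053) and 7.44 (50 tags, rank 13065), with 194 bp of overlap. Both pairs held a heptamer, shown above.

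The highest peak within NFKB1 was also in intron 6, at chr4:102575425-102575681, and was in replicate 2 alone. It scored 17.7 (119 tags, rank 2207, percentile 91.9) and held no heptamer. Among its 500 neighbours by rank in that list, 83.2% were overlapped in replicate 1, whereas this peak was not.

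NFKB2, which encodes the precursor of the subunit used by the noncanonical pathway, had 1 peak, in replicate 2. It was 41753 bp upstream in intron 6 of GBF1, scored 7.14 (48 tags, rank 13834), and held a heptamer and an AP-1 site. RELA, which encodes the main activating subunit p65, also had 1 peak, in replicate 2, with a score of 7.73 (52 tags, rank 12252). The deposited annotation calls it intergenic and places it 1071 bp upstream of the start. The centre was 186 bp upstream of the outermost RefSeq start, within the divergent noncoding gene RELA-DT. Replicate 1 had no peak there, and its nearest peak lay 507 bp beyond the other end of RELA, with a score of 5.09, and was assigned to MIR4489. RELB, the other subunit of the noncanonical pathway, had no assigned peak. The nearest peak in replicate 2 was at the CLASRP promoter, 821 bp beyond the RELB gene body, with a score of 3.87, and the nearest in replicate 1 was at the GEMIN7 promoter, 40955 bp away.

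**Figure D1:**
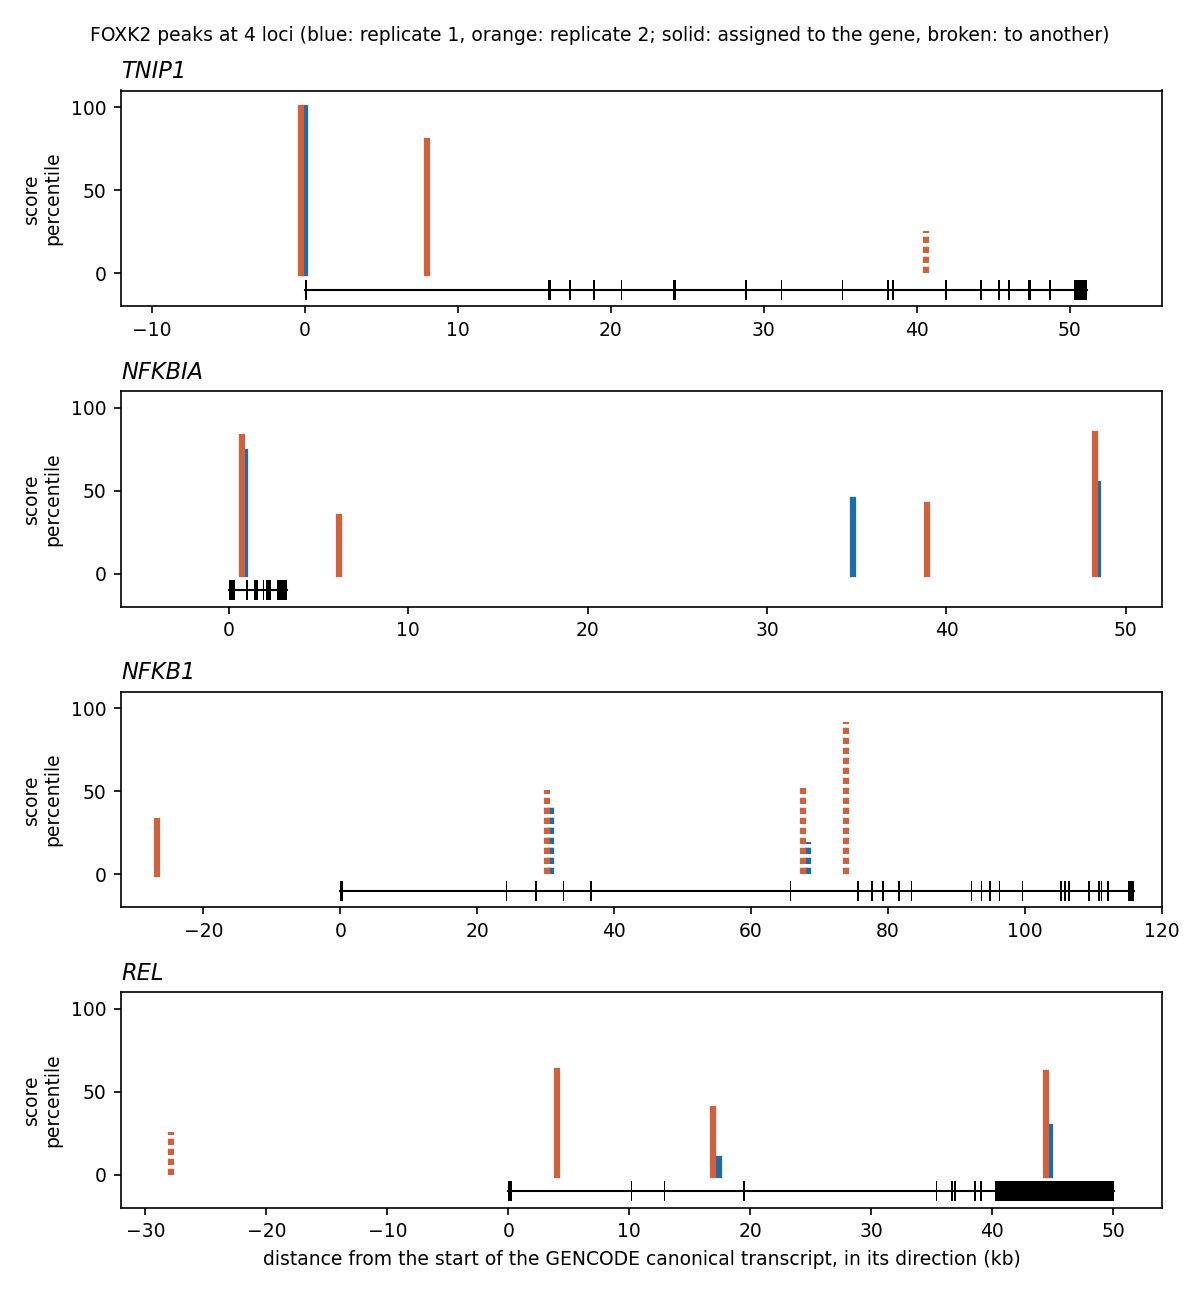
FOXK2 peaks at TNIP1, NFKBIA, NFKB1 and REL. The horizontal axis is the distance in kb from the canonical transcript start, in the direction of the gene, with exons as black boxes. Bar height is the score percentile within the list of replicate 1 (blue) or replicate 2 (orange), and broken bars were assigned to another gene. Each panel covers a limited stretch. The NFKB1 peak of replicate 1 at 51453 bp upstream and those of replicate 2 at 62029 and 71573 bp upstream are not drawn. Also not drawn are replicate 2 peaks assigned to GPX3, 65904 and 74754 bp from the TNIP1 start. TNIP1 reached percentiles 99.4 and 99.7 at its canonical start, and the bars within NFKB1 are all broken.

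**Figure D2:**
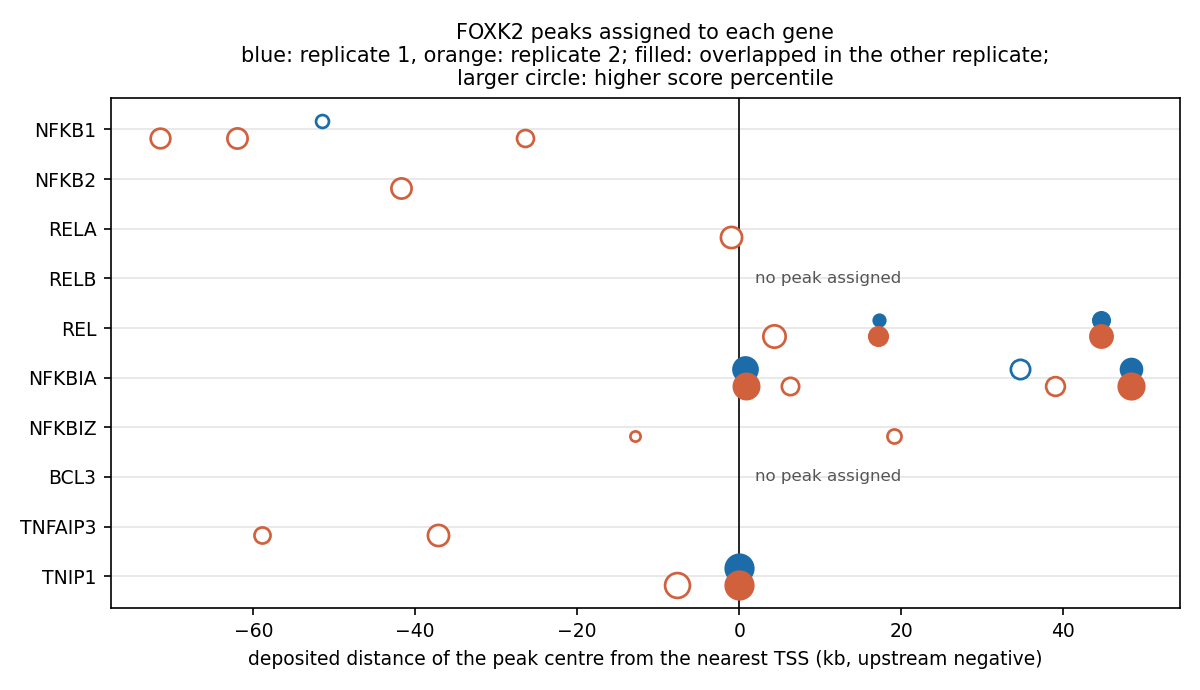
Deposited distance of each peak from the nearest start of its assigned gene, in kb, for replicate 1 (blue, 7 peaks) and replicate 2 (orange, 18 peaks). Filled circles overlap a peak of the other replicate, and larger circles have higher score percentiles. The filled circles are at REL, NFKBIA and TNIP1, and all peaks of NFKB1, NFKB2 and TNFAIP3 are upstream and open.

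Over the 10 genes, 4 had an assigned peak in replicate 1, against 31.4% of 19974 protein-coding genes. In replicate 2, 8 did, against 51.9%. A peak in both replicates was found at 4 genes (NFKB1, REL, NFKBIA and TNIP1), against 28.7%. An overlapping pair was found at 3 (REL, NFKBIA and TNIP1), against 25.6%, and a promoter peak in both at TNIP1 alone, against 9.34%. Counting any overlapping pair inside the gene body, whichever gene the annotation names, gave 4 genes with NFKB1 added, against 17.5%. With 10 genes, each count would move by 10 percentage points with a single gene, and no test was made of the list. The 10 genes had a mean of 0.7 and 1.8 assigned peaks, against 0.464 and 0.997 per protein-coding gene.

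The peaks themselves were set beside the whole lists. In replicate 1, 5 of 7 were overlapped in replicate 2 (71.4%, Wilson 95% interval 35.9 to 91.8), against 74.9% of all peaks. In replicate 2, 5 of 18 were overlapped in replicate 1 (27.8%, 12.5 to 50.9), against 34.2%. Both intervals include the share of the whole list. Promoter peaks were 1 of 7 and 1 of 18, against 21.7% and 18% of all peaks. The median percentile was 44.2 and 49.3, and only the TNIP1 promoter peak was in the top 10% of either list. More than 10 kb from the start lay 5 of 7 and 12 of 18 peaks, against 57.1% and 62.1% of all peaks.

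The heptamer was within 100 bp of the centre of 3 of 7 peaks in replicate 1 (42.9%, 15.8 to 75), against 30.5% of all peaks. In replicate 2 it was within that distance in 8 of 18 (44.4%, 24.6 to 66.3), against 28.2%. Both intervals include the share of all peaks. The difference depended on the setting. Within 50 bp of the centre the share was 42.9% in replicate 1, against 25% of all peaks, and 22.2% in replicate 2, against 23.4%. With the forkhead core in place of the heptamer it was 42.9% in replicate 1, against 57.9%, and 66.7% in replicate 2, against 56.9%. A κB match lay within 2 of the 7 peaks and 2 of the 18, which were the TNIP1 promoter and intron 1 of NFKBIA in each list. Over all peaks the shares with a κB match were 2.89% and 3.35%. Both sites lay near a start, whereas 57.1% and 62.1% of all peaks were more than 10 kb from one. The κB share among peaks near a start was not computed, so this count is not read as a trait of these genes' peaks.

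The 5 shared sites were also compared between replicates. The 2 NFKBIA sites changed order. Intron 1 scored higher in replicate 1 (7.92 against 6.04), and the intergenic site scored higher in replicate 2 (13.2 against 12.6). The Poisson intervals of their tags overlapped in replicate 1 (30.27 to 56.77 and 21.89 to 45.17). They also overlapped in replicate 2 (67.89 to 105.1 and 71.47 to 109.5). The change of order is therefore not read as a difference between the replicates. Over the 5 sites, the score of replicate 2 was 1.58 to 2.19 times that of replicate 1, with a median of 1.8. Over all 9343 overlapping pairs the median was 1.73, and the central 95% ran from 1.03 to 2.69. The plot of paired scores shows TNIP1 apart from the other 4, which lay within the dense part of the cloud.

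**Figure D3:**
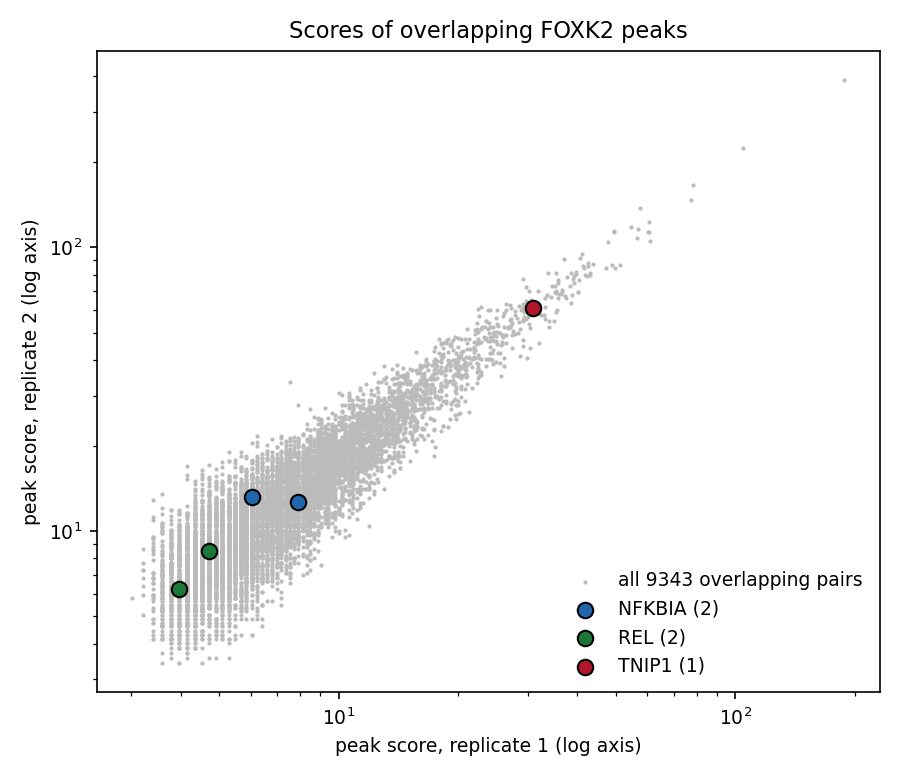
Peak scores of overlapping pairs in replicate 1 (horizontal) and replicate 2 (vertical), both on log axes. Grey points are all 9343 pairs and coloured points are the pairs assigned to NFKBIA (2), REL (2) and TNIP1 (1). TNIP1, at 30.9 and 60.8, is far above the other 4, whose scores run from 3.96 to 7.92 in replicate 1.

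Promoter sequence was compared with the peaks, since κB sites in these promoters are the known route by which NF-κB induces its own genes. RefSeq promoter windows on hg38, from 250 bases before to 50 after a start, were given for 9 of the 10 genes, RELB being the exception. They comprised 15 windows. A κB match was found in a window of 8 of the 9 genes, all but RELA, against 8.42% of 15813 protein-coding genes. The heptamer was found in 1 of the 9, TNIP1, against 3.76%.

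A window was overlapped in both replicates at 1 of the 9 genes, TNIP1, with 211 and 256 bp covered. This is close to the 11.5% of protein-coding genes with such a window. The peak upstream of RELA covered 193 bp of a RELA window in replicate 2, and its heptamer lay just beyond the end of that window. The other 7 genes with a κB match, NFKB1, NFKB2, REL, NFKBIA, NFKBIZ, BCL3 and TNFAIP3, had no peak in a promoter window in either replicate.

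**Figure D4:**
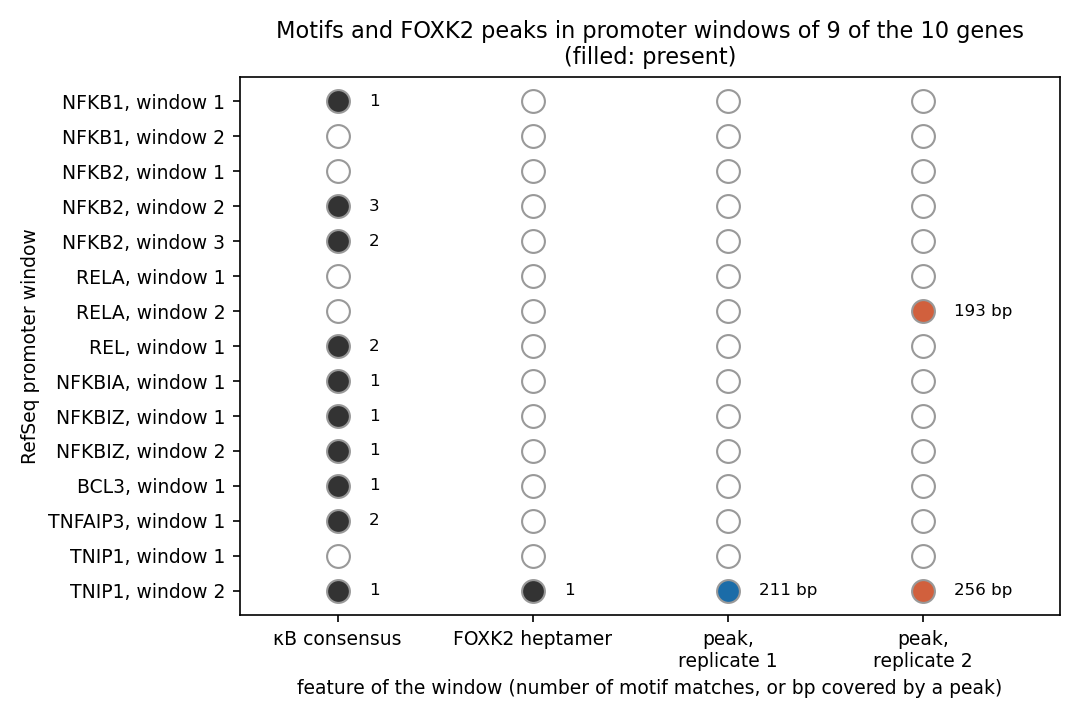
Features of the 15 RefSeq promoter windows of 9 genes. Each row is a window and each column a feature, with filled circles where it is present. Numbers are motif matches, or bp of the window covered by a peak of replicate 1 (blue) or replicate 2 (orange). TNIP1 window 2 is the row with all 4 features, and κB matches fill most rows that no peak reaches.

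The rest of the pathway was described from a list of 81 genes in 7 classes. Of these, 34 had an assigned peak in replicate 1, against 31.4% of protein-coding genes, and 56 had one in replicate 2, against 51.9%. A peak in both was found at 30 (37%), against 28.7%. Neither replicate had one at 21 genes. The share of all protein-coding genes with no peak in either was not computed, so the 21 are not read as a trait of this list. An overlapping pair was found at 27 (33.3%), against the 25.6% of all protein-coding genes, and a promoter peak in both replicates at 7 (8.64%), against 9.34%. By class, overlapping pairs were found at 10 of 23 inducible targets, 5 of 12 other brakes, 3 of 9 receptors, 2 of 6 ligands, 3 of 11 IKK subunits and kinases, and 4 of 16 adapters and ubiquitin ligases. None was found at the 4 remaining Rel and IκB family genes, of which 3 had a peak in a single replicate.

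Ranked by the mean percentile of the pair, the pathway genes with the highest shared peaks were led by GADD45B, a stress-response gene. Its pair scored 13.4 and 30.9 at 31197 and 31143 bp from its start. IL1B, an inflammatory cytokine, had a pair of 14.1 and 25.1 at 18602 and 18612 bp. BIRC3, a ubiquitin ligase of the TNF receptor complex, had a pair of 13 and 24.4 at 75132 and 75143 bp upstream. CXCL8, the chemokine interleukin 8, had a pair of 11.9 and 23.5 in the 5′ UTR, 145 and 135 bp from its start. TAX1BP1, an adapter that works with A20, had a pair of 10 and 20.1 at 16125 and 16138 bp upstream. These 5 pairs each held a heptamer within the peak in both replicates, as did 30.8% and 29.2% of all peaks. The share among peaks of similar score was not computed, so the count is not read as a trait of these genes.

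CYLD, a deubiquitinase that opposes NF-κB activation, had a promoter pair of 8.87 and 22.6 with no heptamer. SOD2, the mitochondrial superoxide dismutase, had a pair of 9.05 and 19.5, and CFLAR, which blocks caspase 8 activation, had a pair of 9.62 and 14.3, both with a heptamer. TAB1, a regulator of the TAK1 kinase, had a promoter pair of 8.68 and 15, and CCL20, a chemokine, had a pair of 8.11 and 17.3, both without one. The TNIP1 pair stood first of the 30 genes with a pair when the 10 genes and the 81 were ranked together by mean percentile.

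**Figure D5:**
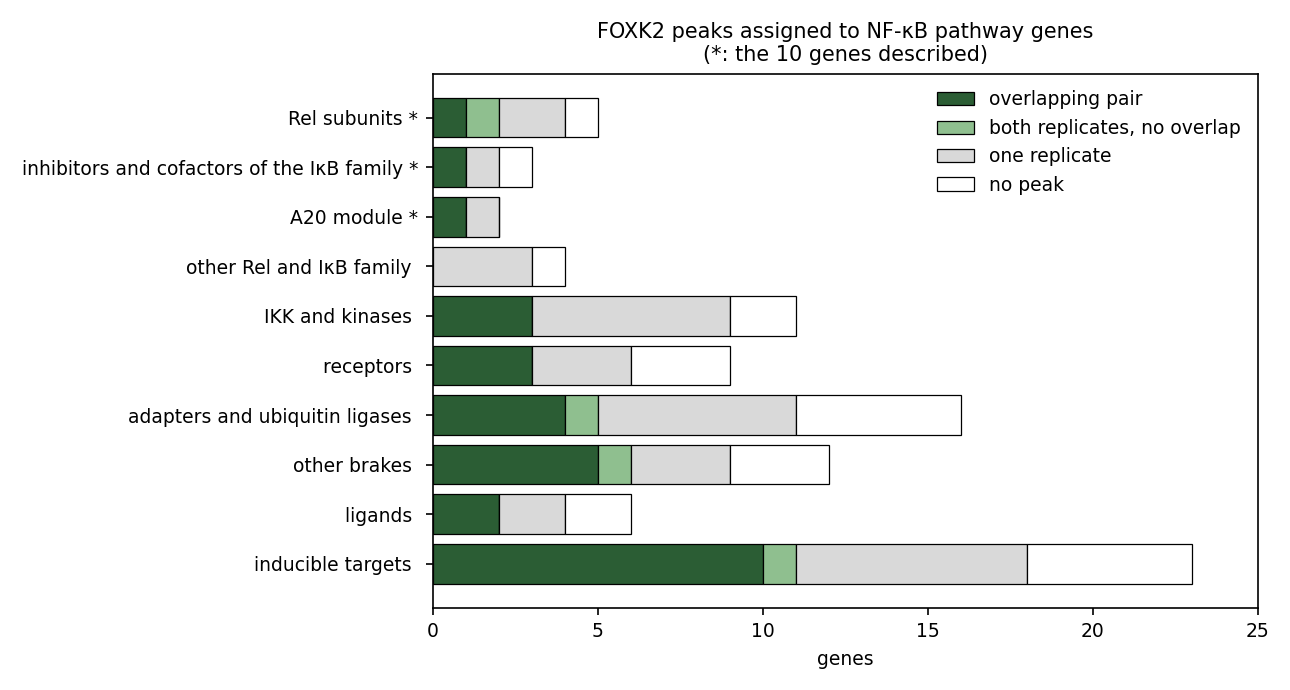
Number of genes (horizontal axis) in each class of the NF-κB system, split by whether FOXK2 peaks assigned to them overlapped between replicates, were in both without overlap, were in a single replicate, or were absent. Stars mark the classes of the 10 genes. Overlapping pairs were at 1 of 5 Rel subunits, 1 of 3 IκB family genes and 1 of 2 genes of the A20 module, against 25.6% of protein-coding genes, and differences between classes were not tested.

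Nearest-start assignment left out much of what lay around the 10 genes. Within 50 kb of their gene bodies there were 15 peaks in replicate 1 and 38 in replicate 2. Of these, 9 and 23 were assigned to another gene. The same share around all protein-coding genes was not computed, so these counts are not read as a trait of these genes. RELA had 2 shared pairs assigned to another gene, at the MAP3K11 and PCNX3 promoters. They scored 6.23 and 11.2 at MAP3K11, which encodes a kinase of the JNK pathway, and 6.04 and 12.5 at PCNX3. NFKB2 had a shared pair at the CUEDC2 promoter, with scores of 4.34 and 6.1.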

How the data were processed

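OVCAR5 FOXK2 ChIP-seq was analysed from the peak list of each of 2 replicates. Per the study's methods and processing notes, the authors aligned reads to hg38 with Bowtie2 2.2.6, called peaks with HOMER 4.10 separately for each replicate and annotated each to the nearest TSS. The deposited values are a peak score (tags scaled to a fixed library size), a focus ratio (a fraction), and other columns such as the distance in bp. Peaks were 211 and 257 bases long. Every score under 10 was a whole multiple of the value of 1 tag, within 0.005, which at HOMER's default scaling to 10000000 implies libraries of 53 and 67.2 M tags.

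Peaks overlapped when they shared at least 1 bp. The background was all 19974 protein-coding genes of RefSeq on chromosomes 1 to 22 and X, matched by gene ID, or all peaks of a list. Motifs were searched on both strands of hg38: the heptamer, the AP-1 site, the κB consensus, and the forkhead core of 7 letters. GENCODE release 44 gave canonical transcripts and overlapping genes. RefSeq gave promoter windows. The lists are of FOXK2 ChIP alone, so no test between ChIP and input was made. Shares carry Wilson intervals, which cover counting error only.

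Named genes were the 10 genes, each with all of its peaks, the 10 of 81 other pathway genes with the highest mean percentile of an overlapping pair, and genes overlapping or next to the peaks. The genes, lists and rules were chosen with earlier results of these data known. Alternatives were higher-scoring and equal-length lists, stricter overlap, limits on TSS distance, gene-body assignment, other motif windows and leaving out each replicate. Overlap and motif steps were checked on simulated data. The input libraries were not used here. Python 3.11.15, numpy 2.4.6, pandas 2.3.3, scipy 1.17.1, pysam 0.24.0, samtools 1.23.1 and matplotlib 3.10.9 were used.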

Additional observations from a re-analysis of the deposited data

How the results depend on the processing

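Of 38 alternative values, 27 stayed within the limit set for each result and 11 moved beyond it. Shares of all protein-coding genes or all peaks are given in parentheses. The 4 genes with a peak in both replicates (28.7%) became 2 among peaks above the median score of each list (17.2%), 2 within 10 kb of the TSS (17%) and 8 with any peak within 50 kb of the gene body (59.3%). On 1 replicate at a time the count ran from 4 to 8. The 3 genes with an overlapping pair (25.6%) became 7 within 50 kb (53.2%). The 27 pathway genes became 17 of 81, or 21%, within 10 kb (15.8%), and 55, or 67.9%, within 50 kb (53.2%). The overlapped share of replicate 1 peaks rose from 71.4% to 100% above the median score, with 3 peaks (88.4%), and that of replicate 2 from 27.8% to 57.1% with lists of equal length (60%). The heptamer share within 50 bp was 42.9% in replicate 1 (25%) and 22.2% in replicate 2 (23.4%). With the forkhead core it was 42.9% in replicate 1 (57.9%) and 66.7% in replicate 2 (56.9%), so the side of all peaks on which these genes fell differed between replicates. The gene-body count, chosen after seeing the data, was 4. The promoter count of 1 was the same in every alternative run for it. The causes of these shifts were not tested. No paired analysis was possible because the lists are of a single condition and the input libraries that share replicate numbers were not analysed here. The study compares target with input in its enrichment statistics; whether input entered the calling of these per-replicate lists is not given in the sources used here.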
